A study of Mus musculus with 6 samples.

Results

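The 10 genes described here encode secreted ligands of the TGF-beta superfamily: Gdf15, Gdf10, Gdf11, the inhibin/activin beta subunits Inhba and Inhbb, the 3 TGF-beta isoforms Tgfb1, Tgfb2 and Tgfb3, and the bone morphogenetic proteins Bmp2 and Bmp4. They were taken by gene symbol, and all 10 were found among the 21456 genes of the table. RNA of white adipose tissue (WAT) was sequenced in 3 control samples (Ntsr2 flox/flox, with loxP sites around Ntsr2 and no Cre) and 3 Ntsr2 AKO samples (Adipoq-cre::Ntsr2 flox/flox), from mice kept on chow. Ntsr2 encodes a receptor for the peptide neurotensin. The floxed alleles are common to both groups, and Cre under the Adipoq promoter is active in brown as well as white adipocytes, so the model is not limited to white fat. The depot, sex and age are not given in the sources used here, and the samples are named control 3, 4 and 5 and Ntsr2 AKO 3, 4 and 5 after their labels. Nothing in the labels says that each came from a separate animal, so p values measure the spread between these samples.

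TGF-beta superfamily ligands are made as precursors that proteases such as furin cleave, and the mature dimers bind pairs of type II and type I receptor kinases. Activins and TGF-betas act mainly through Smad2 and Smad3, and bone morphogenetic proteins through Smad1, Smad5 and Smad9, while secreted antagonists such as follistatin-like 3 and noggin hold ligands away from their receptors. GDF15 is a divergent member that cells release under stress. It binds GFRAL, which signals with the kinase RET in the hindbrain and lowers food intake. In fat, activin B and its receptor Acvr1c are known for adipocyte lipid storage, Bmp4 for commitment of adipocyte precursors, and TGF-beta 1 for fibrosis. The comparison addresses which of these ligand genes WAT transcribed, and whether their levels differed when Ntsr2 was deleted from adipocytes.

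Gdf15 lies at chr8:70629393-70632456 on the minus strand of GRCm38 (mm10 in the submitters' processing notes), with 2 transcripts in GENCODE M21 and no overlapping gene. Its coding sequence is 909 bases long and sits on 2 exons. The stretch that the study's Gdf15 primers amplify is shown as a part of the coding sequence common to both transcripts; the values below count reads over the whole gene, not this product. It covers 189 coding bases at chr8:70630030-70631376, with 44 bases in the upstream exon and 145 in the downstream exon, and the 1158-base intron between them is left out. Capitals mark the 2 primer sites, the forward primer first and the complement of the reverse primer last.
Gdf15 amplicon: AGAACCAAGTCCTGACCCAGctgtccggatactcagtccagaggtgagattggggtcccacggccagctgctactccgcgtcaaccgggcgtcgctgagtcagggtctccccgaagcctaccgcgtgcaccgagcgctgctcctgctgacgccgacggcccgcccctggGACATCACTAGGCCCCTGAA
Gdf15 forward primer: AGAACCAAGTCCTGACCCAG
Gdf15 reverse primer: TTCAGGGGCCTAGTGATGTC
The amplified stretch is the same in both transcripts, of 1545 and 1380 bases, which differ mainly upstream of it.

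Values are normalized counts, that is, read counts divided by 1 size factor per sample, and recovered totals were 60405373 to 66098226 reads in control and 54085088 to 56268725 reads in Ntsr2 AKO samples. The targeted gene was low in the samples labelled as deleted: Ntsr2 stood at 83.8, 64.0 and 152.5 in control 3, 4 and 5 and at 3.10, 8.29 and 0 in Ntsr2 AKO 3, 4 and 5. All 8 adipocyte markers, Adipoq and Plin1 among them, were present, summing to 1222400 to 1785700 in control and 1532500 to 1760700 in Ntsr2 AKO samples. Skeletal muscle transcripts set 3 samples apart. The 9 muscle markers summed to 2593900 in control 5, 85388 in Ntsr2 AKO 4 and 187070 in Ntsr2 AKO 5, against 509.6 to 1567 in control 3, control 4 and Ntsr2 AKO 3. Myh4, a fast myosin, was at 0 or 4.13 in the latter 3. The log2 fold change of each ligand and of the gene called in the whole table is therefore also given for those 3 samples alone. Of the other marker lists, the 7 adipose progenitor markers summed to 74132 to 111150 in control and 85820 to 136250 in Ntsr2 AKO samples, the 6 macrophage markers found to 29142 to 87983 and 30381 to 71299, and the 6 endothelial markers to 18819 to 29751 and 19634 to 26130. The 4 smooth muscle markers summed to 4384 to 8371 in control and 5225 to 6930 in Ntsr2 AKO samples, and the 4 brown adipocyte markers to 3415 to 7183 and 6433 to 10972, with Ucp1 at 55.7 or below throughout. The 7 lymphocyte markers summed to 189.0 to 1323 and 172.1 to 348.3, with the highest value in control 3. The 6 epithelial markers (45.1 to 277.9 and 34.2 to 39.5, highest in control 3) and the 5 mesothelial markers found (157.3 to 470.4 and 142.0 to 176.5) were low, with Upk3b and Wt1 at 0 in 5 of 6 samples each. The groups' summed ranges overlapped in every marker list but the epithelial one. Single markers lay apart in 2 lists: the brown adipocyte marker Cidea was at 2134, 4167 and 3345 in control and 4513, 5122 and 6410.4 in Ntsr2 AKO samples (unadjusted p = 0.0224 and adjusted p = 0.558 in limma), and the mesothelial marker Krt19 at 134.4, 412.7 and 84.4 against 68.1, 32.1 and 67.8 (unadjusted p = 0.0369 and adjusted p = 0.575 in limma). All 3 tested brown adipocyte markers and all 9 muscle markers had positive log2 fold changes in limma. For muscle the sign depended on the measure, and all 9 markers had negative values in DESeq2. Myh4 was at 2.86 in limma and -3.47 in DESeq2, with means of 377517 in control and 33719 in Ntsr2 AKO samples. All 6 macrophage markers and the 2 tested epithelial markers had negative log2 fold changes in limma, and the other lists held both signs. The part of these cell types in the results below was not tested beyond the values given for muscle.

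Gdf15 was lower in every Ntsr2 AKO sample than in any control sample. Its normalized counts were 47.9, 70.2 and 89.2 in control 3, 4 and 5 and 34.1, 22.8 and 13.2 in Ntsr2 AKO 3, 4 and 5. Control 5 was the highest and Ntsr2 AKO 5 the lowest. The means were 69.1 ± 20.7 (SD, n = 3) and 23.3 ± 10.5 (SD, n = 3), and the fitted difference was -1.58 on the log2 scale, with a standard error of 0.50 and a 95% interval of -2.76 to -0.40. Fold changes are differences between group means of log2(normalized count + 1), and for genes with few reads or zeros they depend on the added 1. The unadjusted p from limma was 0.0162 and the Benjamini-Hochberg adjusted p over all 16157 genes tested was 0.532, so the difference did not pass the threshold of 0.05. The adjusted p was 0.585 in edgeR's quasi-likelihood test and 0.204 in DESeq2, both on the recovered reads.

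These Gdf15 values rest on few reads. The control samples held 52, 68 and 93 reads of Gdf15 and the Ntsr2 AKO samples 33, 22 and 13. The exact 95% Poisson interval of the normalized count was 35.7 to 62.8 in control 3 and 23.4 to 47.8 in Ntsr2 AKO 3, the neighbouring pair of the 2 groups, so these overlapped in counting error. Intervals cover counting error only and take the recovered reads as independent counts. The counts were derived from coverage and only approximate reads, so these intervals, and those of Nodal below, may be too narrow. Among the samples with skeletal muscle transcripts, Gdf15 was at 89.2 in control 5 against 22.8 and 13.2 in Ntsr2 AKO 4 and 5. Among those without, it was at 47.9 and 70.2 against 34.1, a log2 fold change of -0.75 (limma, adjusted p = 0.9997), in which the lone Ntsr2 AKO sample is assumed to vary like the controls. With the muscle score as a covariate the log2 fold change was -1.57 (limma, adjusted p = 0.561). In bulk tissue, fewer cells that make Gdf15 and less Gdf15 RNA per cell cannot be told apart.

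**Figure D1:**
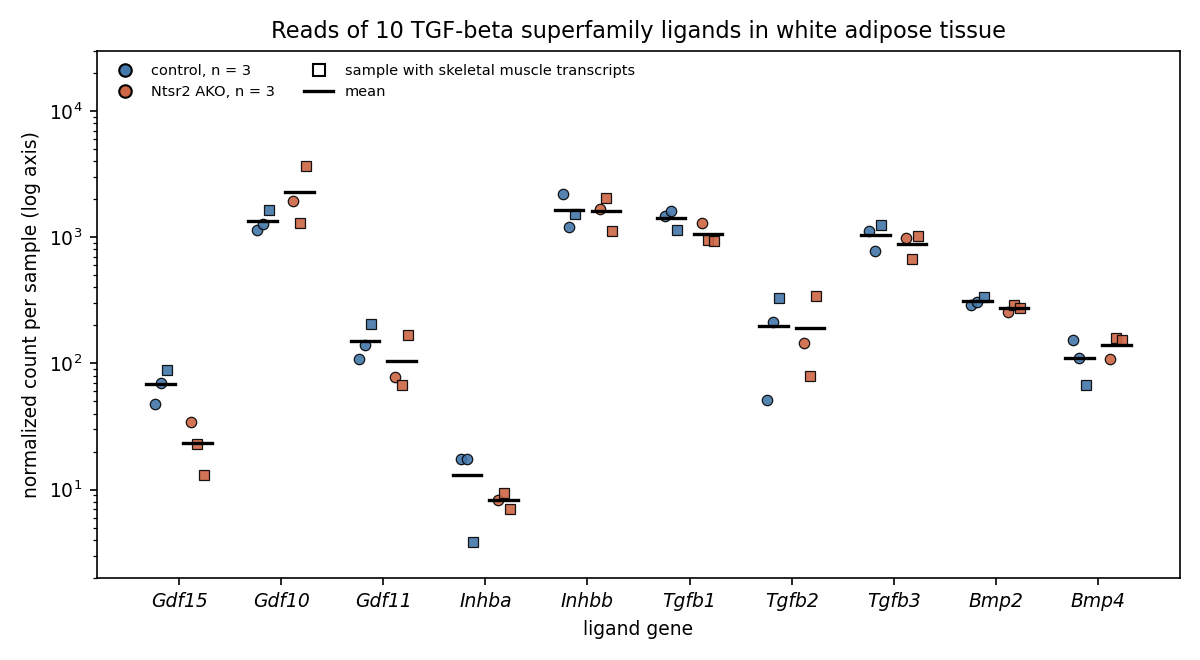
Normalized count of each of the 10 ligand genes (log axis) in each control (blue) and Ntsr2 AKO (orange) sample, with squares for the 3 samples that hold skeletal muscle transcripts and bars for group means (n = 3). Gdf15 ran from 47.9 to 89.2 in control and 13.2 to 34.1 in Ntsr2 AKO samples; Bmp2 is the other ligand whose groups did not overlap.

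Over the 10 ligands, 0 passed the adjusted threshold in limma, edgeR or DESeq2. At an unadjusted p under 0.05, limma and edgeR gave Gdf15 alone, and DESeq2 gave Gdf10 and Gdf15. In the whole table limma called 1 gene, which is 0.00619% of the genes tested, and DESeq2 called 219 of 15877 genes with an adjusted p, or 1.38%. An unadjusted p under 0.05 was reached by 5.27% of all genes as lower and by 3.08% as higher in Ntsr2 AKO samples. Those shares depended on the scaling, with 852 genes lower and 497 higher as deposited, 612 and 633 after quantile normalization, and 467 and 843 after thinning to equal totals. Of the ligands, 7 had a negative and 3 a positive log2 fold change, with a median of -0.21 against -0.0071 over all genes tested. Of all genes tested, 8236 had a negative and 7921 a positive log2 fold change. Thinning moved the median of all genes to 0.089.

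The groups did not overlap for 2 ligands, Gdf15 and Bmp2, both lower in Ntsr2 AKO samples, and for 0 ligands in the other direction. Over all genes tested, 8.16% lay lower without overlap and 6.82% higher. Without control 5 the count of ligands lower without overlap was 4, with Tgfb1 and Inhba added, where 12.2% of all genes tested lay lower. In the 3 samples without skeletal muscle transcripts it was 6, where 1 sample is set against 2 and 28.2% of all genes lay lower.

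Of the 3 TGF-beta isoforms, which act on fibroblasts and immune cells, 0 passed the adjusted or unadjusted threshold in limma, edgeR or DESeq2. Tgfb1 was at 1483, 1621 and 1135 in control 3, 4 and 5 and at 1306, 954.6 and 928.1 in Ntsr2 AKO 3, 4 and 5. Ntsr2 AKO 3 lay within the control range and the other 2 Ntsr2 AKO samples below it, and the log2 fold change was -0.41 (standard error 0.20, 95% interval -0.89 to 0.066; limma, adjusted p = 0.618), or -0.25 in the 3 samples without muscle transcripts. Control 5, with the most muscle transcripts, had the lowest control value. Tgfb3 was at 1128, 779.9 and 1240.3 in control and 978.5, 675.8 and 1019 in Ntsr2 AKO samples, in overlapping ranges, with a log2 fold change of -0.23 (95% interval -0.81 to 0.34) that was 0.061 in the 3 samples without muscle transcripts. Tgfb2 varied most of the isoforms, from 51.5 through 211.5 to 327.1 in control 3, 4 and 5 and at 145.5, 79.8 and 342.1 in Ntsr2 AKO 3, 4 and 5. Its log2 fold change of 0.050 had a 95% interval of -1.84 to 1.94, and its sign depended on the processing. It was 0.47 in the 3 samples without muscle transcripts and -0.73 without control 3. Tgfb2 and Tgfb3 share exonic bases with genes on the opposite strand, and the library kit does not mark strand, so their reads cannot be told apart from those genes.

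The activin subunits stood at opposite ends of the abundance scale. Inhbb, which forms activin B, was at 2196, 1198 and 1537 in control and 1668, 2057 and 1128 in Ntsr2 AKO samples. Its means of 1643 ± 507.6 and 1618 ± 466.5 (SD, n = 3 each) differed by less than the spread, with a log2 fold change of -0.021 (95% interval -0.72 to 0.68) whose sign depended on the processing and which was 0.041 in the 3 samples without muscle transcripts. Inhba, which forms activin A, was at 17.5, 17.5 and 3.84 in control and 8.26, 9.33 and 7.08 in Ntsr2 AKO samples. The lowest value was that of control 5, at 4 reads, and the 95% interval of the log2 fold change of -0.37 ran from -2.25 to 1.52. The log2 fold change was -1.01 without control 5. Without the muscle samples it was -0.9998, with 8 reads in the lone Ntsr2 AKO sample.

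Bmp2 and Bmp4, the bone morphogenetic proteins of the set, pointed in opposite directions without passing the test. Bmp2 was at 292.7, 308.5 and 337.7 in control and 257.0, 289.2 and 275.3 in Ntsr2 AKO samples. The groups were close but did not overlap, and of the 10 ligands Bmp2 had the narrowest 95% interval, from -0.61 to 0.22 around a log2 fold change of -0.19 (limma, adjusted p = 0.782), or -0.22 in the 3 samples without muscle transcripts. Thinned to equal totals, the groups of Bmp2 overlapped. Bmp4 was at 151.9, 110.4 and 67.1 in control and 108.4, 157.6 and 153.8 in Ntsr2 AKO samples. Control 5 was the lowest, and the log2 fold change of 0.40 (95% interval -0.47 to 1.28) was -0.25 in the 3 samples without muscle transcripts, 0.091 without control 5 and 0.67 without control 3. Bmp4 also shares exonic bases with Gm15217 on the opposite strand.

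Gdf10 and Gdf11 complete the list. Gdf10, a ligand related to Bmp3, was at 1140.3, 1273 and 1647 in control and 1951, 1286 and 3637 in Ntsr2 AKO samples. Ntsr2 AKO 4 lay within the control range and Ntsr2 AKO 5 well above all others. The log2 fold change of 0.64 (standard error 0.37, 95% interval -0.23 to 1.52; limma, adjusted p = 0.667) was 0.69 in the 3 samples without muscle transcripts. It was 0.24 without Ntsr2 AKO 5 and 0.99 without Ntsr2 AKO 4. Gdf11, a close relative of myostatin, was at 107.7, 139.3 and 206.2 in control and 77.4, 67.4 and 168.0 in Ntsr2 AKO samples. Both groups had their highest value in replicate 5, and the log2 fold change was -0.60 (95% interval -1.64 to 0.44). It was -0.66 in the 3 samples without muscle transcripts, -0.35 without control 5 or without Ntsr2 AKO 4, and -1.003 without Ntsr2 AKO 5.

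**Figure D2:**
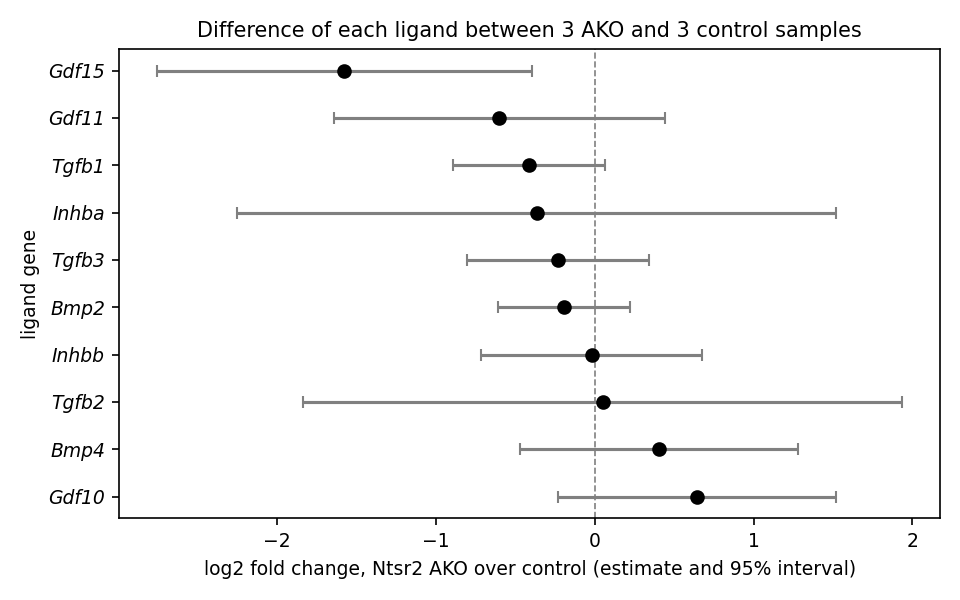
Log2 fold change of each ligand in 3 Ntsr2 AKO over 3 control samples (points, limma) with its 95% interval (bars), ordered by size, with a dashed line at 0. The interval of Gdf15 (-2.76 to -0.40) leaves out 0 before adjustment for all genes tested, and those of the other 9 ligands include it.

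To compare levels between genes, normalized counts were divided by the kilobases (kb) of exons of each gene, 1852 bases for Gdf15 and 2248 to 6390 bases for the others; the division uses all annotated exons. On this scale Inhbb was the most abundant ligand in control samples (386.2 ± 119.3 per kb), followed by Tgfb3 (310.2 ± 71.0), Tgfb1 (280.2 ± 49.7) and Gdf10 (259.8 ± 50.4, SD, n = 3 each). Neighbours among these 4 overlapped between samples. Bmp2 (88.0 ± 6.42) lay below them and above Bmp4 (48.8 ± 18.8) without overlap. Gdf15 (37.3 ± 11.2) came next, and its range overlapped with those of Bmp4, Gdf11 (37.2 ± 12.4) and Tgfb2 (34.0 ± 23.9). Inhba (2.03 ± 1.24) was the lowest, without overlap with Tgfb2.

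In Ntsr2 AKO samples the level of Gdf15 was 12.6 ± 5.65 per kb (SD, n = 3), ninth of the 10 ligands after being seventh in control. In control its mean level stood at the 23.3 percentile of the 15141 tested genes with a known length, and at the 12.2 percentile in Ntsr2 AKO samples. Gdf10 had the highest mean in this group (439.8 ± 232.6 per kb), and its lowest Ntsr2 AKO value, 246.9, lay below the highest value of Inhbb, Tgfb3 and Tgfb1 in that group. Inhbb, Tgfb3 and Tgfb1 followed it in their control order. These places depend on the length used: per coding kilobase, Gdf15 was ninth in control as well.

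**Figure D3:**
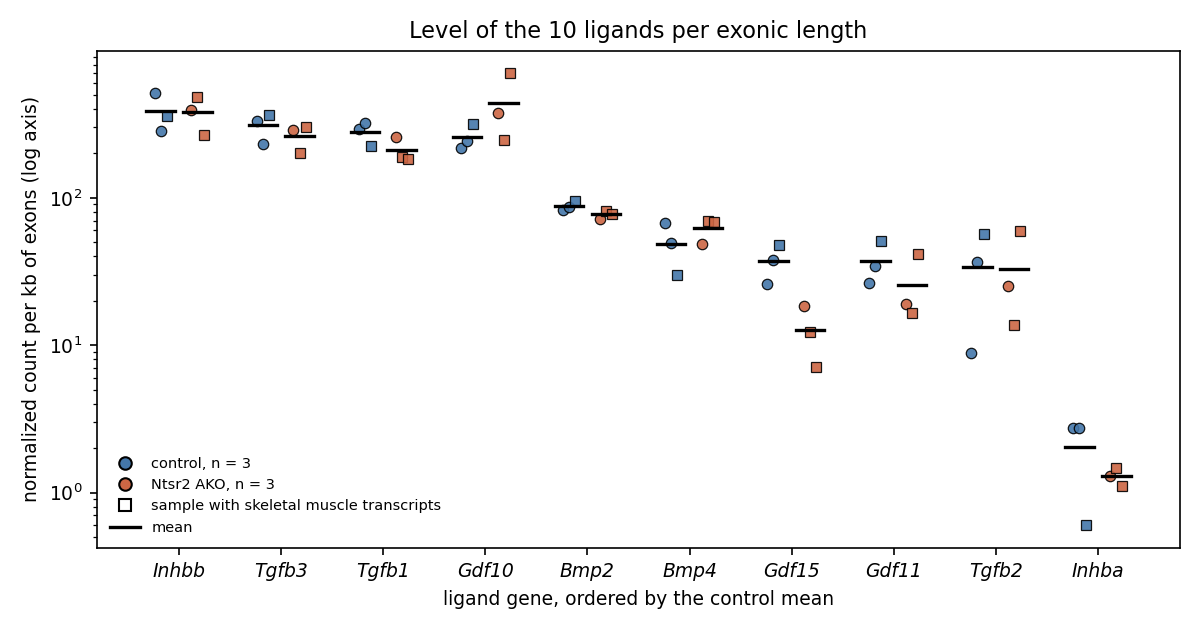
Normalized count per kb of exons (log axis) of the 10 ligand genes, ordered by the control mean, in each control (blue) and Ntsr2 AKO (orange) sample, with squares for samples with skeletal muscle transcripts and bars for means (n = 3). Inhbb, Tgfb3, Tgfb1 and Gdf10 lie highest and Inhba lowest, and Gdf15 has a mean of 37.3 in control and 12.6 in Ntsr2 AKO samples.

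Within each sample, Gdf15 was also set against every other ligand, which removes any scaling common to the sample. The log2 ratio was lower in Ntsr2 AKO samples for all 9 ligands, by -0.98 (Gdf11) to -2.22 (Gdf10). Each difference is the log2 fold change of Gdf15 less that of the other ligand. Gdf15 had the most negative log2 fold change of the ligands, so the shared direction was fixed by it and adds no further support. These 9 ratios share the Gdf15 values and are not independent. The share of all genes whose ratio to Gdf15 would not overlap was not computed. Several differences were smaller with 1 sample left out: without Ntsr2 AKO 5 the differences were -0.23 for Gdf11, -0.73 for Tgfb2, -0.89 for Tgfb3 and -1.48 for Gdf10, and without control 5 that for Inhba was -0.36. In the 3 samples without muscle transcripts they ranged from -0.095 (Gdf11) to -1.45 (Gdf10) for 8 ligands and the difference was 0.25 for Inhba. The ratios to Gdf10, Inhbb, Tgfb1, Tgfb3 and Bmp2 did not overlap between the groups. An exact two-sided permutation test gave p = 0.10 for each of these 5, the smallest p that 3 samples against 3 allow, and 0.18 after Benjamini-Hochberg adjustment over the 9 ratios. Against Bmp2, the ligand that varied least, the log2 ratio was -2.59, -2.12 and -1.91 in control 3, 4 and 5 and -2.88, -3.61 and -4.29 in Ntsr2 AKO 3, 4 and 5. Against Tgfb1 it was -4.92, -4.51 and -3.65 in control and -5.22, -5.33 and -6.04 in Ntsr2 AKO samples. In both series Ntsr2 AKO 3 lay nearest to control 3. For Gdf11, Inhba, Tgfb2 and Bmp4 the groups overlapped (exact permutation p = 0.20, adjusted p = 0.20 for each).

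**Figure D4:**
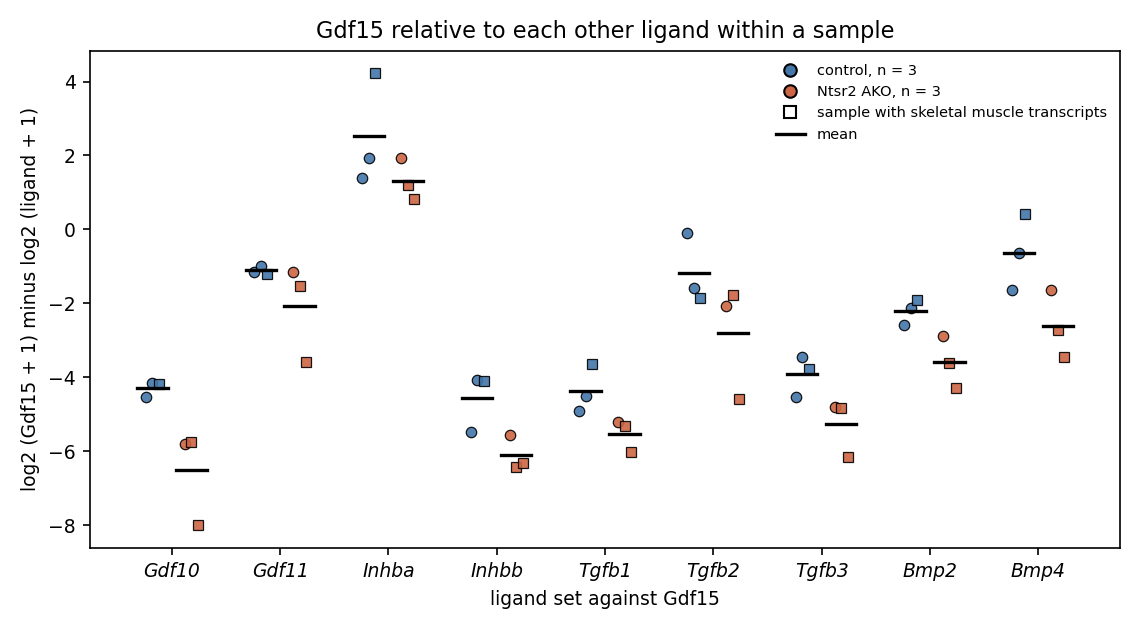
Log2 ratio of Gdf15 to each other ligand within a sample (both as normalized count + 1) in control (blue) and Ntsr2 AKO (orange) samples, with squares for samples with skeletal muscle transcripts and bars for means (n = 3). The ratio is lower on average in Ntsr2 AKO samples for all 9 ligands, without overlap for Gdf10, Inhbb, Tgfb1, Tgfb3 and Bmp2. The shared direction follows from Gdf15 having the most negative log2 fold change of the ligands.

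The pattern of Gdf15 over the 6 samples was compared with that of every gene tested, as the mean absolute difference between log2 values centred on each gene's mean. The 5 most similar genes were E230013L22Rik (0.218), Fam129b (0.223), Rrp12 (0.224), Igf2bp2 (0.258) and Hist1h4n (0.283). Rrp12, a ribosome biogenesis factor, was at 1254, 1215 and 1975 in control and 779.3, 531.7 and 477.7 in Ntsr2 AKO samples. Igf2bp2, an RNA-binding protein, was at 1199, 1311 and 1533 against 1103, 577.3 and 370.4. Of the other 9 ligands, Tgfb1 came nearest to Gdf15 (0.582, at place 956 among all genes tested), and Gdf10 was the farthest (1.11).

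Of 23 other ligands of the superfamily, 18 were in the table and 13 were abundant enough to test, of which 0 passed the adjusted or unadjusted threshold in limma, 0 passed the adjusted threshold in DESeq2, 6 had negative and 7 positive log2 fold changes, and the median was 0.11. Inha, the inhibin alpha subunit, had the smallest p, with 7.36, 29.9 and 26.9 in control and 27.9, 52.9 and 84.0 in Ntsr2 AKO samples (log2 fold change 1.40, 95% interval -0.25 to 3.05). Gdf5, a joint-forming ligand, was at 50.6, 0 and 0 against 28.9, 16.6 and 38.5 (2.88, 95% interval -0.93 to 6.69). The value for Gdf5 depended on the processing: it was 5.06 with a pseudocount of 0.1, 1.51 with 5, 0.73 in edgeR, 0.74 in DESeq2 and 4.78 without control 3. Bmp8a was at 12.9, 6.19 and 51.8 against 4.13, 5.18 and 6.07 (-1.52, 95% interval -3.66 to 0.63). All 3 rest on few reads in some samples. Nodal, which was too low to test and was chosen after its values were seen, had 4, 16 and 15 reads in control and 0 in each Ntsr2 AKO sample, with exact 95% Poisson upper limits of 3.73 to 3.82 on the normalized count.

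Among those ligands, 2 were highest where the muscle transcripts were. Mstn, the muscle ligand myostatin, was at 9.20, 0 and 2074 in control and 0, 49.8 and 273.3 in Ntsr2 AKO samples, high in the same 3 samples as Myh4. Gdf1 was at 0, 8.25 and 161.2 in control and 12.4, 46.6 and 104.2 in Ntsr2 AKO samples. All 1349 exonic bases of Gdf1 (chr8:70329817-70331587, plus strand) are also exonic in Cers1, a ceramide synthase gene with 3171 exonic bases. Reads over Gdf1 therefore cannot be told apart from Cers1 reads over the shared bases. Cers1 itself was listed at 0 in every sample but control 5, at 196.7.

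The receptors were represented by 19 tested genes of 22, of which 15 had negative and 4 positive log2 fold changes (median -0.20). In limma and DESeq2 0 passed the adjusted threshold, and in limma 1 was lower and 1 higher at an unadjusted p under 0.05. Over all genes tested, 8236 had negative and 7921 positive log2 fold changes. At that unadjusted p, 5.27% of all genes were lower and 3.08% higher, which is the background for this and the following lists. Of 7 type I receptors, Acvr1c, through which activin B acts on adipocytes, was at 15392, 10540 and 10918 in control and 18714, 18118 and 15064 in Ntsr2 AKO samples, higher by 0.51 on the log2 scale (unadjusted p = 0.0277 and adjusted p = 0.565 in limma). Only Ntsr2 AKO 5 lay within the control range. Tgfbr1 was at 1929, 1728 and 2491 against 1403, 1609 and 1645 (log2 fold change -0.39, limma, adjusted p = 0.600), without overlap. Of 5 type II receptors, Bmpr2 was at 564.2, 373.5 and 831.7 against 409.8, 305.8 and 287.4 (-0.76, limma, adjusted p = 0.594). Its log2 fold change was -0.16 in the 3 samples without muscle transcripts. Of the receptors of GDF15 itself, Gfral has no row in the table, and Ret was at 1370.4, 920.2 and 701.2 in control and 892.9, 690.3 and 493.9 in Ntsr2 AKO samples, in overlapping ranges. Among 8 co-receptors, 6 were tested, and Hfe2 (hemojuvelin) was above 0 in the 3 samples with skeletal muscle transcripts and at 0 in the other 3.

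All 8 Smads were tested, with 5 negative and 3 positive log2 fold changes (median -0.14), 0 past the adjusted threshold in limma or DESeq2, and 1 lower and 1 higher at an unadjusted p under 0.05 in limma. Smad9, an effector of bone morphogenetic proteins, was at 23.0, 9.28 and 15.3 in control and 48.5, 44.6 and 47.6 in Ntsr2 AKO samples. The groups did not overlap, and the log2 fold change was 1.59 (standard error 0.49, limma, adjusted p = 0.523), or 1.66 in the 3 samples without muscle transcripts. The inhibitory Smad7 was at 723.4, 371.4 and 697.4 against 321.0, 371.1 and 377.5 (-0.68, limma, adjusted p = 0.593), and Smad1 at 1683, 1460 and 1640 against 1419, 1416 and 1069 (-0.30, limma, adjusted p = 0.634).

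Of 14 antagonists tested, 7 had negative and 7 positive log2 fold changes (median -0.048), 0 passed the adjusted threshold in limma or DESeq2, and 1 was lower and 1 higher at an unadjusted p under 0.05 in limma. Dand5, which binds Nodal and bone morphogenetic proteins, was at 262.3, 212.5 and 236.0 in control and 337.5, 353.5 and 368.4 in Ntsr2 AKO samples (0.58, standard error 0.18, limma, adjusted p = 0.524). Fstl3, which holds activins and myostatin, was at 335.9, 171.3 and 271.5 against 165.2, 130.6 and 108.3 (-0.91, standard error 0.32, limma, adjusted p = 0.565). In neither gene did the groups overlap, and without the muscle samples the value of Fstl3 was -0.54. Bmper was at 1261, 1650 and 1954 against 1865, 2362 and 4797 (0.79, limma, adjusted p = 0.607), and at 0.37 without the muscle samples.

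Genes of ligand processing and latency cover the latent complex, its activation and the cleavage of precursors. Of these, 17 were tested, with 14 negative and 3 positive log2 fold changes (median -0.18). In limma and DESeq2 0 passed the adjusted threshold, and 1 was lower at an unadjusted p under 0.05 in limma. Thbs1, or thrombospondin 1, an activator of latent TGF-beta, had the lowest p of the list, with 55865, 11623 and 21253 in control and 5130.0, 1088 and 759.0 in Ntsr2 AKO samples. The groups did not overlap, and the log2 fold change was -3.89 (standard error 0.83, 95% interval -5.85 to -1.92; adjusted p = 0.499 in limma and 0.0545 in DESeq2). It was -2.31 in the 3 samples without muscle transcripts. Furin, which cleaves the precursors, was at 4779, 3944 and 4690 against 4232, 3084 and 2696 (-0.44, limma, adjusted p = 0.594), and at -0.037 without the muscle samples. Lrrc32, which displays latent TGF-beta on the cell surface, was at 1311, 1922 and 770.3 against 1033, 569.0 and 532.3 (-0.88, limma, adjusted p = 0.603).

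Genes that the pathway induces were read out with 13 targets, of which 8 had negative and 5 positive log2 fold changes (median -0.045). In limma and DESeq2 0 passed the adjusted threshold, with 1 lower at an unadjusted p under 0.05 in limma. That gene was Ctgf, which encodes a matricellular factor, at 465.7, 468.4 and 651.4 in control and 349.9, 210.4 and 253.0 in Ntsr2 AKO samples. Its groups were apart, by -0.97 on the log2 scale (standard error 0.25; adjusted p = 0.522 in limma and 0.0641 in DESeq2), and the value was -0.42 in the 3 samples without muscle transcripts. Id1, a direct target of bone morphogenetic proteins, was at 2811, 3645 and 1946 against 3395, 3599 and 3384, in overlapping ranges. Tgfbi, an extracellular matrix protein, was at 5904, 3284 and 5673 against 4334, 3772 and 3117 (-0.37, limma, adjusted p = 0.708), and at -0.023 without the muscle samples.

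Stress-related transcription factors that act on Gdf15 in other systems, and genes they induce, were 10 tested genes. Of these, 9 had negative and 1 had a positive log2 fold change (median -0.42). In limma and in DESeq2 1 passed the adjusted threshold. At an unadjusted p under 0.05 in limma 4 were lower, as were 5.27% of all genes tested. The list was chosen with earlier results of these data known, so its counts are not independent of them. Over all the lists of pathway and stress genes edgeR called 0, with 14 at an unadjusted p under 0.05. These lists held 13, 19, 8, 14, 17, 13 and 10 tested genes. In the whole table edgeR gave 1323 of 16157 genes at an unadjusted p under 0.05. Egr1, an immediate early factor, was the gene called by limma in the whole table, and it fell from 2411, 2020.0 and 2627 in control to 513.0, 407.3 and 507.0 in Ntsr2 AKO samples (log2 fold change -2.30, standard error 0.16, or -2.10 in the 3 samples without muscle transcripts; adjusted p = 0.0442 in limma, 0.0512 in edgeR and 5.8e-30 in DESeq2). Atf3 was at 520.9, 657.2 and 496.9 against 328.2, 128.5 and 319.8 (-1.21, standard error 0.38, limma, adjusted p = 0.535), and Atf4, the main factor of the integrated stress response, at 11264, 8919 and 10675 against 8725, 7386 and 6002 (-0.49, standard error 0.17, limma, adjusted p = 0.564). In both genes the groups did not overlap, and without the muscle samples their log2 fold changes were -0.83 and -0.20. The other tested genes of the list did overlap between the groups. Their log2 fold changes were -1.28 for Chac1, -0.57 for Cebpb, -0.35 for Sesn2, -0.24 for Asns, -0.20 for Nfe2l2, -0.18 for Ddit3 and 0.32 for Trib3. Cebpb was among the 4 lower genes (unadjusted p = 0.0383 and adjusted p = 0.581 in limma). Trib3 was the 1 gene of the list with a positive value. The ATF4-induced Fgf21, another hormone made under stress, was too low to test, at 11.0, 16.5 and 2.88 in control and 4.13, 7.26 and 16.2 in Ntsr2 AKO samples.

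**Figure D5:**
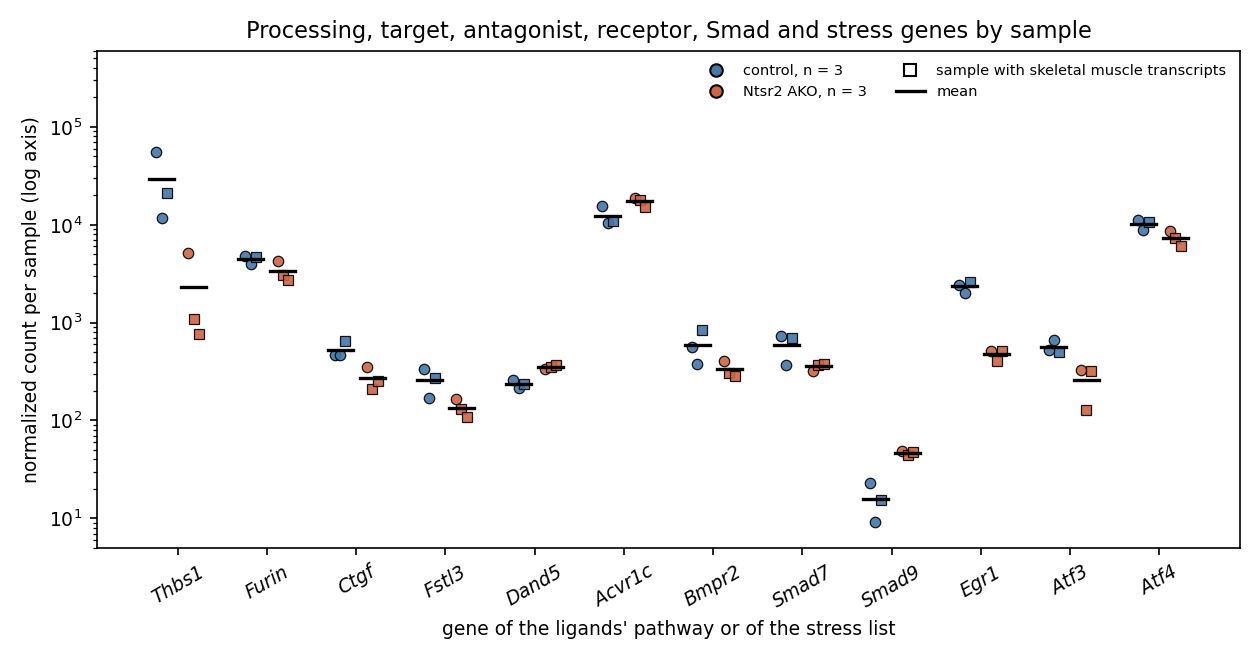
Normalized count (log axis) of 12 genes of ligand processing, targets, antagonists, receptors, Smads and the stress list in each control (blue) and Ntsr2 AKO (orange) sample, with squares for samples with skeletal muscle transcripts and bars for means (n = 3). Egr1, at 2020.0 to 2627 against 407.3 to 513.0, is the gene called by limma. Thbs1, Ctgf, Fstl3, Atf3 and Atf4 also lie lower without overlap, and Smad9 and Dand5 lie higher without overlap. Over all genes tested, 8.16% lay lower and 6.82% higher without overlap. The 12 genes shown were picked for a small p within their lists.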

How the data were processed

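RNA from white adipose tissue of 3 control and 3 Ntsr2 AKO samples was sequenced on poly-A selected libraries (NEBNext Ultra). Per the methods, the authors used Trimmomatic to trim, HISAT2 to align and StringTie to count; the submitters' processing notes name mm10, and the annotation is not given in the sources used here. The deposited signal values are normalized counts, each a read count divided by 1 size factor per sample, as read from the values. Division by the smallest value of each column gave whole reads for 100% of values (within 0.001, scaled for large counts). StringTie derives counts from coverage, so totals approximate reads. Control totals exceeded all Ntsr2 AKO totals. No columns were duplicates.

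Log2(normalized count + 1) of genes with a mean of at least 10 was tested with limma 3.58.1 (mean-variance trend, R 4.3.3, Benjamini-Hochberg, threshold 0.05). edgeR 4.0.16 (TMM) and DESeq2 1.42.0 were run on recovered reads as alternatives, with pseudocounts 0.1 and 5, a minimum mean of 50 or none, quantile normalization, thinning, eBayes without trend, a replicate block and omission of each sample. The muscle covariate and the fit to 3 samples (Myh4 under 1000) were chosen after seeing the data. The procedures were tested on simulated data, where limma and edgeR had to pass a limit on false calls. DESeq2 gave more false calls there, was exempt from that limit, and served as an alternative only. Lengths and positions are from GENCODE M21, in which 19722 of 21456 symbols matched 1 gene. The amplicon was read from its transcripts. The members and gene lists were chosen with earlier results of these data known. Genes named are the 10 members, the list genes past the threshold or the 3 of smallest p in each list, and the 5 genes most like Gdf15. Nodal, Mstn, Gdf1, Cers1, Ret, Hfe2, Fgf21, Ddit3, Asns, Trib3, Chac1, Cebpb, Sesn2, Nfe2l2, Cidea and Krt19 were named after their values were seen. Of the list of induced targets, 1 gene is not reported here.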

Additional observations from a re-analysis of the deposited data

How the results depend on the processing

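Of 31 genes followed by their log2 fold change, 27 kept their direction under every alternative run. The 4 that reversed, Inhbb, Tgfb2, Tgfb3 and Bmp4, were all among the 10 ligands. The genes followed outside the ligands had been picked for a small p in these same samples, which favours a stable direction. Of 9 ratios of Gdf15, 8 kept their direction, and the ratio to Inhba reversed to 0.25 in the 3 samples without muscle transcripts. For Gdf15 the log2 fold change lay between -0.75 and -1.89, and its adjusted p between 0.204 (DESeq2) and 0.9997. Leaving out 1 sample at a time gave -1.89 to -1.23, and an unadjusted p under 0.05 was lost without control 5 and in the 3 samples without muscle transcripts. With a mean of at least 50 Gdf15 was not tested. The replicate numbers 3, 4 and 5 are shared by the groups, and deviations of same-numbered samples correlated by 0.445, -0.242 and 0.407. These 3 values, of mixed sign, cannot decide whether the numbers mark a pairing. With the replicate as a block, Gdf15 was at -1.58 (limma, adjusted p = 0.605) and 0 genes were called. Of 16157 genes tested, 1303 had an unadjusted p under 0.05 in limma, 17 of them in the pathway lists. Those lists held 13, 19, 8, 14, 17, 13 and 10 tested genes.

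The single gene called in limma, Egr1, which is also the single call in the pathway lists, was lost (0 genes in each) with no filter (1579 genes at an unadjusted p under 0.05), thinning (1310), eBayes without trend (1325), the block, edgeR (1323), each sample left out (range 0 to 0, 646 to 1690 unadjusted), the muscle covariate (1361) and the 3 samples without muscle transcripts (252). DESeq2 called 219 genes, 1 of them in the pathway lists. Ligands lower without overlap numbered 1 with a mean of at least 50, where Gdf15 was left out, and 1 after thinning. They numbered 2 to 4 with samples left out (4 without control 5) and 6 in the 3 samples without muscle transcripts. The shares of all genes were 8.76%, 4.25%, 10.1% to 16.1% and 28.2% in the same order. Ligands higher without overlap numbered 0 to 1 with samples left out. It was 1 without control 5, without Ntsr2 AKO 3 and without Ntsr2 AKO 4, where 11.8%, 14.3% and 9.11% of all genes lay higher. In the 3 samples it was also 1, beside 27.1% of all genes. Gdf15 ranked 9 of 10 per coding length, and 7 to 8 with samples left out.

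Reversed directions were those of Inhbb with quantile normalization (0.051), thinning (0.087), samples left out (-0.23 to 0.22) and the 3 samples (0.041), of Tgfb2 with edgeR (-0.043), DESeq2 (-0.049), the muscle covariate (-0.087) and samples left out (-0.73 to 0.59), of Tgfb3 in the 3 samples (0.061) and of Bmp4 in the 3 samples (-0.25). The causes were not tested. Gdf15 rests on 13 to 93 reads per sample and Inhba on 4 to 19.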
